A study of Mus musculus with 3 samples.

Results

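Serotonin receptors are the genes Htr1a, Htr1b, Htr2c and Htr7, taken as every row with these symbols in 3 marker tables of nuclei from the mouse lateral septum. All 4 were listed, in 15 rows, among 1039 different genes listed in the 3 tables. The mice were 8 naive male C57BL/6J littermates aged 3 months, with no treatment, transgene or mutation in the labels. Their septal tissue was pooled, the nuclei passed a fluorescence sorter, and 3 droplet libraries were made from nuclear RNA, which form 1 group. Per the labels' protocols, small amounts of medial septum, triangular septum, prefrontal cortex or striatum may be in the punches. The tables compare 25 clusters of all nuclei (Broad), 22 subclusters of GABA neurons (GABA) and 8 subclusters of a set labelled Sst (Sst), each against the other nuclei of its table. All libraries belong to 1 group and no values per library were used. No value below therefore has a replicate error, and no test between conditions was possible. With the mice pooled, values per library would not have given the spread between animals either.

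Serotonin reaches the forebrain from neurons of the raphe nuclei, and the septum is among the regions their axons supply. Its receptors, apart from the Htr3 ion channels, couple to G proteins. The receptors encoded by Htr1a and Htr1b couple to Gi/o and dampen firing or transmitter release, that of Htr2c couples to Gq and phospholipase C, and that of Htr7 couples to Gs and raises cyclic AMP. Mice without Htr2c overeat, and drugs that activate its receptor reduce food intake, which makes it the member best known for feeding, the subject of the study's title.

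Each cluster had 50 listed genes, in order of the authors' p-value, and their log2 fold change was never below 1. Being listed is the only call used here, and a gene absent from a list may still be higher in that cluster. For Broad clusters, 4.05% of the 20574 genes implied by the authors' adjustment factor were listed for at least 1 cluster, with 4 of 4 members listed. For GABA subclusters the share was 3.52%, again with 4 of 4 members, and for Sst subclusters 1.95%, with 3 of 4. The members were taken because they are listed, so nothing is read from these counts. Over the full family of 14 serotonin receptor genes, 5 were listed among Broad clusters, 6 among GABA subclusters and 4 among Sst subclusters. The 2 listed genes of that family beyond the members were Htr4 and Htr3a.

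The members fell into 3 patterns. Htr2c was listed for 6 clusters and in each of them with another member. All 4 clusters that listed Htr7 and both clusters that listed Htr1a also listed Htr2c. Htr1b was listed for 3 clusters and in 0 of them with another member. As background, the 6 clusters listing Htr2c, which include those of Htr7 and Htr1a, held 16.4% of the 1039 genes listed anywhere. Nothing is read from that 0, and the counts are descriptions. By their names the GABA and Sst tables may cover nuclei that are also in the Broad table, so listings of 1 gene in several tables are not treated as separate results.

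**Figure D1:**
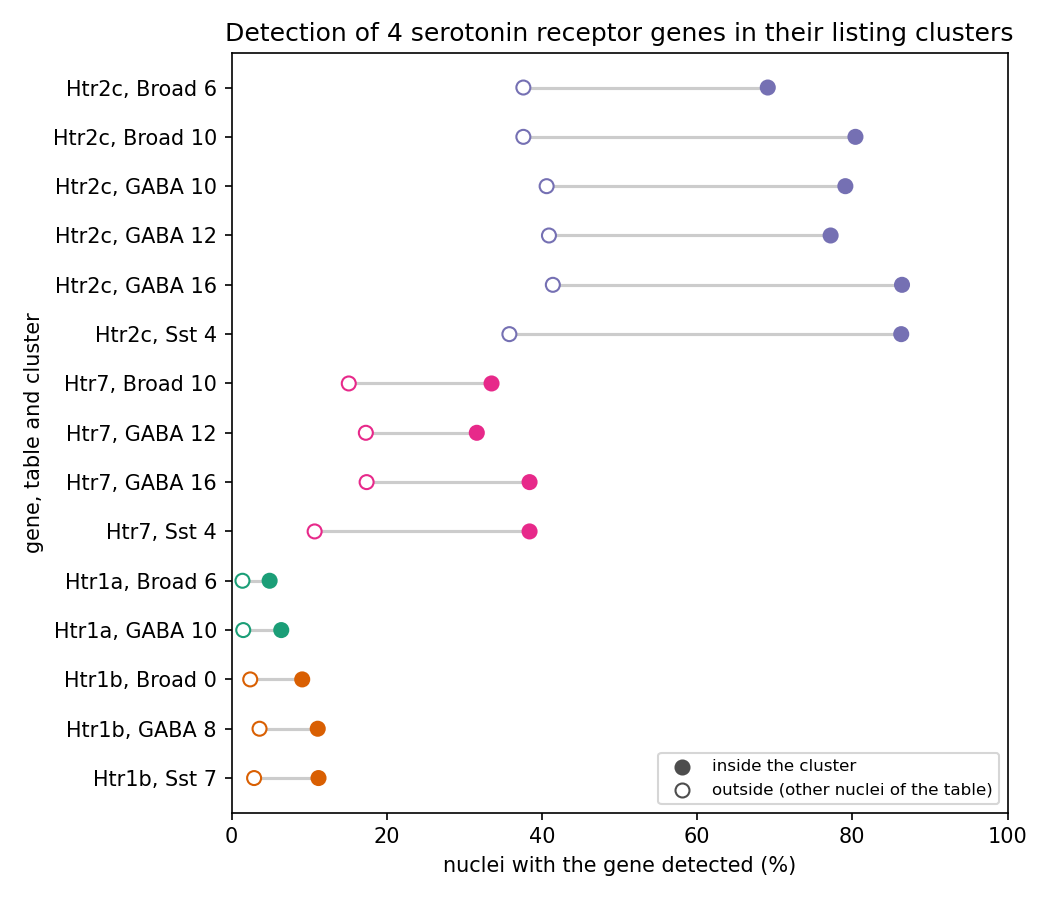
Percentage of nuclei in which each of the 4 receptor genes was detected (x axis), for the 15 rows of gene, table and cluster (y axis); filled points are nuclei inside the cluster and open points all other nuclei of the same table. Htr2c lay between 69.1% and 86.4% inside against 35.8% to 41.4% outside, and Htr1a was at 4.9% and 6.4% inside against 1.4% and 1.5% outside.

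The RefSeq promoter windows of the 4 members on GRCm38.p6 are given, from 250 bases before to 50 bases after the RefSeq start site, 5′ to 3′ on the gene's own strand. Capitals mark every match, on either strand, of 5 short motifs that were searched: the TATA box TATAAA, the CCAAT box CCAAT, the GC box GGGCGG, the cyclic AMP response element TGACGTCA and the E-box CACGTG.
Htr1a (chr13:105443443-105443742, plus strand): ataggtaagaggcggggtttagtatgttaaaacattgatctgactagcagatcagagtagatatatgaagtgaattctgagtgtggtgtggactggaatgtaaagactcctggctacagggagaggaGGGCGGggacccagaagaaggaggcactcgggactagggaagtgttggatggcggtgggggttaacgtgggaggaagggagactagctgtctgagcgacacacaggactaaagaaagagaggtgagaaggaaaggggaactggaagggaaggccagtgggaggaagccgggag
Htr1b (chr9:81633783-81634082, minus strand): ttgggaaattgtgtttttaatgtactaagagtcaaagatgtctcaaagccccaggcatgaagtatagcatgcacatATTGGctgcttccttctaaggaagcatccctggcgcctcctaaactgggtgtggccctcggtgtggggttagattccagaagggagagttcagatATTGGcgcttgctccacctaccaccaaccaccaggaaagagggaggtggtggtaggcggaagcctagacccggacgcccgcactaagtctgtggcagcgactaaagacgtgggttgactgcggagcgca
Htr2c (chrX:146962263-146962562, plus strand): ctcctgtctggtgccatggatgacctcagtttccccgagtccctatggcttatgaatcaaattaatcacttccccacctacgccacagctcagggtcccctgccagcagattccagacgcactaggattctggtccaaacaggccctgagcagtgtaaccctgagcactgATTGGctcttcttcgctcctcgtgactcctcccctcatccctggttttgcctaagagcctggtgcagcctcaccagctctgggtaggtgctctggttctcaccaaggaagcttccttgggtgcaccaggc
Htr7 (chr19:36057311-36057610, minus strand): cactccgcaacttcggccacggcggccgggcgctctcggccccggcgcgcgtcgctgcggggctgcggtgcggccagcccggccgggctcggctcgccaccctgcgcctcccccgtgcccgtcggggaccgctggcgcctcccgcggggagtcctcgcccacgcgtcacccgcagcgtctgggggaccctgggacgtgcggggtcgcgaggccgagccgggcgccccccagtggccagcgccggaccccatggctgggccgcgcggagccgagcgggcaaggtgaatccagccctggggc

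The windows differed in base composition. That of Htr7 was 81% G or C with 46 CpG dinucleotides, and its G and C content exceeded that of 99.3% of the 32851 windows in the reference table. The window of Htr2c, the gene listed beside Htr7, was 56.3% G or C with 5 CpG. Those of Htr1a and Htr1b were 52.3% and 53.3% G or C, close to the median window at 52.7%. A CCAAT box on the opposite strand was found once in the Htr2c window, first base at -80 from the start site, and at -174 and -79 in the Htr1b window. A GC box was found in the Htr1a window at -123, and the Htr7 window held 0 of the motifs. CCAAT was found in 37.4% of all windows, GGGCGG in 35.7%, TATAAA in 13.6%, CACGTG in 7.15% and TGACGTCA in 1.79%. No marked matches overlap, and these matches are letters in a window, not measured binding.

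In the annotation (GENCODE M21, GRCm38, the assembly of mm10), Htr1a has 1 exon of 4484 bases on chromosome 13 from 105443639 to 105448122, plus strand. Htr1b has its coding sequence in 1 exon and spans 5538 bases on chromosome 9 from 81628291 to 81633828, minus strand. Htr2c spans 234765 bases on chromosome X from 146962513 to 147197277, plus strand, of which 3.97% is exon. Htr7 spans 98774 bases on chromosome 19 from 35958734 to 36057507, minus strand, of which 3.44% is exon. The gene starts in this annotation are not all those of the RefSeq windows. For Htr7 the start at 36057507 lies inside the window (36057311 to 36057610), so much of that window is within the annotated gene. The Htr1a start at 105443639 also lies upstream of its RefSeq start. Nuclear RNA holds introns, and the sources used here do not say whether the authors counted them. Detection of different genes can therefore differ with their length and introns, which was not tested for the ranks among genes and the likeness by detection given here.

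Htr1a, which encodes a Gi/o-coupled receptor that opens potassium channels in septal and hippocampal neurons, had a row in GABA subcluster 10 and in Broad cluster 6. In GABA subcluster 10 it was detected in 6.4% of nuclei, against 1.5% of the other GABA nuclei, with a log2 fold change of 2.11, per the authors' deposited table. In Broad cluster 6 it was detected in 4.9% against 1.4%, with a log2 fold change of 1.86, per the authors' deposited table. These clusters shared 29 of their 50 listed genes, 58% of each list, and were each other's best match. The detection ratio inside over outside was 4.27 in GABA subcluster 10, between 4.10 and 4.45 within the rounding of the percentages, and 3.50 in Broad cluster 6, between 3.34 and 3.67. In order of p, Htr1a was gene 48 of 50 in GABA subcluster 10 and 41 of 50 in Broad cluster 6. It thus stood towards the end of both lists by that order.

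The share of nuclei in each cluster can be recovered from the tables, because detection inside and outside, weighted by the cluster's share, must come to 1 overall value per gene, whichever listing cluster is used. Broad cluster 6 held 5.26% of all nuclei and 16.3% of the nuclei with Htr1a detected (15.6% to 17.0% within rounding). GABA subcluster 10 held 4.28% of GABA nuclei and 16.0% of those with Htr1a (15.4% to 16.6%). The other 84.0% of Htr1a-positive GABA nuclei lay in 21 subclusters that do not list the gene, where it was detected in 1.5% of nuclei on average, per the authors' deposited table. How much of that low level is free RNA is unknown.

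The clusters with Htr1a had leading genes of other kinds, counting those detected in at least 25% of their nuclei. GABA subcluster 10 was led by Megf11 (log2 fold change 2.89, 36.2% against 6.8%), the axon guidance gene Sema3a (2.31, 29.7% against 9.0%) and the zinc finger gene Zfp536 (1.99, 39.9% against 11.8%), per the authors' deposited table. Broad cluster 6 was led by Sema3a (1.94), the RNA-binding protein gene Elavl2 (1.74) and Fstl5 (1.63), per the authors' deposited table. Subcluster 10 also listed Adcy8, a calcium-stimulated adenylyl cyclase, at 34.9% against 17.7% (1.08), per the authors' deposited table. By listing clusters and then detection, the gene most like Htr1a in the Broad table was the metalloprotease gene Adamts16, at 5.2% in cluster 6 against 1.8% (1.63), per the authors' deposited table, followed by Grhl3, Smoc1, Camk1 and Myo3b. In the GABA table it was the transcription factor gene Grhl3, at 5.0% against 0.6% (2.97), per the authors' deposited table, followed by Crtac1, Phex, Angpt1 and Vwc2. The ties were wide, since 15 Broad genes and 14 GABA genes had the same single listing cluster as Htr1a.

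Htr1b, whose Gi/o-coupled receptor is best known from axon terminals, was listed for a separate set of clusters. It was detected in 11.1% of the nuclei of GABA subcluster 8, against 3.6% of other GABA nuclei (log2 fold change 1.71), per the authors' deposited table. In Sst subcluster 7 it was detected in 11.2% against 2.9% (1.99), per the authors' deposited table. In Broad cluster 0 it was detected in 9.1% against 2.4% (1.98), per the authors' deposited table. Detection inside was thus close to 10% in all 3, about 3 to 4 times that outside: the ratios were 3.08, 3.86 and 3.79 in the order given.

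The clusters with Htr1b held unequal parts of its positive nuclei. Broad cluster 0 held 14.9% of all nuclei and 40.0% of the nuclei with Htr1b (39.2% to 40.8% within rounding). Sst subcluster 7 held 18.1% of Sst nuclei and 46.0% of those with Htr1b (45.3% to 46.8%). GABA subcluster 8 held 5.25% of GABA nuclei and 14.6% of those with Htr1b (14.3% to 14.8%). GABA subcluster 8 and Sst subcluster 7 shared 30 of 50 genes, 60% of each list. Broad cluster 0 shared 16 of 50 with GABA subcluster 8, but 38 of 50 with GABA subcluster 1, which does not list Htr1b.

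The Htr1b clusters had the basement membrane collagen gene Col15a1 as their first gene among those detected in at least 25% of nuclei. It was detected in 33.2% of GABA subcluster 8 against 6.7% (2.42), in 32.5% of Sst subcluster 7 against 4.3% (3.13) and in 28.0% of Broad cluster 0 against 3.2% (3.39), per the authors' deposited table. Next in GABA subcluster 8 were Thsd7a (2.09) and Wfs1 (2.05), in Sst subcluster 7 Nfib (2.54) and Gm13481 (2.41), and in Broad cluster 0 the channel gene Ano2 (2.02) and Cald1 (1.84), per the authors' deposited table. Of the genes most like Htr1b, D430036J16Rik was among the 5 nearest in all 3 tables. The nearest in each was the TGF-β signalling gene Smad3 in the GABA table, at 10.0% in subcluster 8 against 3.6%, the potassium channel gene Kcnh3 in the Sst table, at 9.5% in subcluster 7 against 2.0%, and the netrin receptor gene Unc5b in the Broad table, at 9.5% in cluster 0 against 2.9%, per the authors' deposited table. Here 23 GABA, 38 Sst and 27 Broad genes had the same listing cluster, so the order rests on detection alone. Of genes for second messengers, GABA subcluster 8 and Sst subcluster 7 listed the phospholipase gene Plcb1 (99.6% against 85.5% and 99.6% against 85.6%) and the phosphodiesterase gene Pde1a (59.4% against 30.0% and 58.3% against 28.1%), per the authors' deposited table. Sst subcluster 7 also listed Pde4b, and Broad cluster 0 the diacylglycerol kinase gene Dgkg, at 90.8% against 62.5%, per the authors' deposited table. Subcluster 8 listed the incretin receptor gene Glp1r too, at 3.2% against 0.6%, per the authors' deposited table.

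Htr2c, whose receptor raises intracellular calcium through Gq, was detected in a large part of all nuclei and was still listed for 6 clusters. In the GABA table it was detected in 79.1% of subcluster 10 against 40.6% outside (log2 fold change 1.79), in 77.2% of subcluster 12 against 40.9% (1.39) and in 86.4% of subcluster 16 against 41.4% (1.54), per the authors' deposited table. In the Broad table it was detected in 69.1% of cluster 6 against 37.6% (1.62) and in 80.4% of cluster 10 against 37.6% (1.63), per the authors' deposited table. In Sst subcluster 4 it was detected in 86.3% against 35.8% (1.90), per the authors' deposited table. Among GABA subclusters the order was 16, 10, 12 by detection inside and 10, 16, 12 by log2 fold change. With no replicate values it cannot be said which neighbours in either order differ beyond their spread.

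Overall detection of Htr2c, recovered from the shares, was 42.2% of GABA nuclei, 39.3% of all nuclei and 38.7% of Sst nuclei. The 3 GABA subclusters gave overall values that differed by 0.0643 points, within rounding. The shares were solved so that such values agree, with the rows of Htr2c among those used, so this closeness is not a separate check. Together they held 9.57% of GABA nuclei and 18.1% of the GABA nuclei with Htr2c. The other 19 GABA subclusters, none of which lists the gene, had it in 38.2% of their nuclei on average. In the Broad table, clusters 6 and 10 held 9.24% of nuclei and 17.4% of those with Htr2c, and the other 23 averaged 35.7%. Htr2c was therefore widely detected, and its listing clusters stood above a high general level. As for Htr1a, how much of that level is free RNA is unknown.

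**Figure D2:**
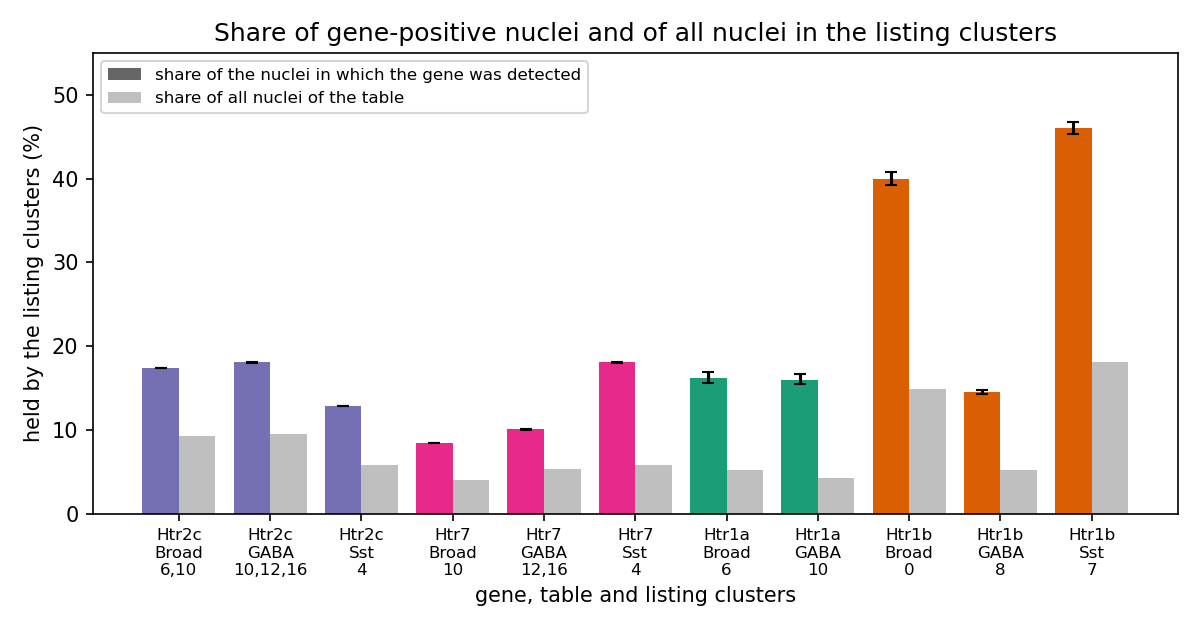
Share held by the listing clusters together (y axis, %), for each gene and table with its listing clusters (x axis). Coloured bars are the nuclei in which the gene was detected, and grey bars all nuclei of the table. Thin bars are the bounds from rounding of the gene's own detection with the shares held, without error in the shares. The listing clusters held 12.9% to 18.1% of the Htr2c-positive nuclei, 8.44% to 18.1% for Htr7, 16.0% and 16.3% for Htr1a and 14.6% to 46.0% for Htr1b.

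The place of Htr2c in its lists depended on the measure. By the difference in detection it ranked 2 to 4 of 50 in its 6 clusters, with differences of 31.5 to 50.5 percentage points. By log2 fold change it ranked 13 to 32. Htr1a and Htr1b did the opposite, with ranks 41 to 49 by the detection difference and 8 to 16 by log2 fold change. Htr2c also stood early in order of p, at 2 to 8 of 50.

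**Figure D3:**
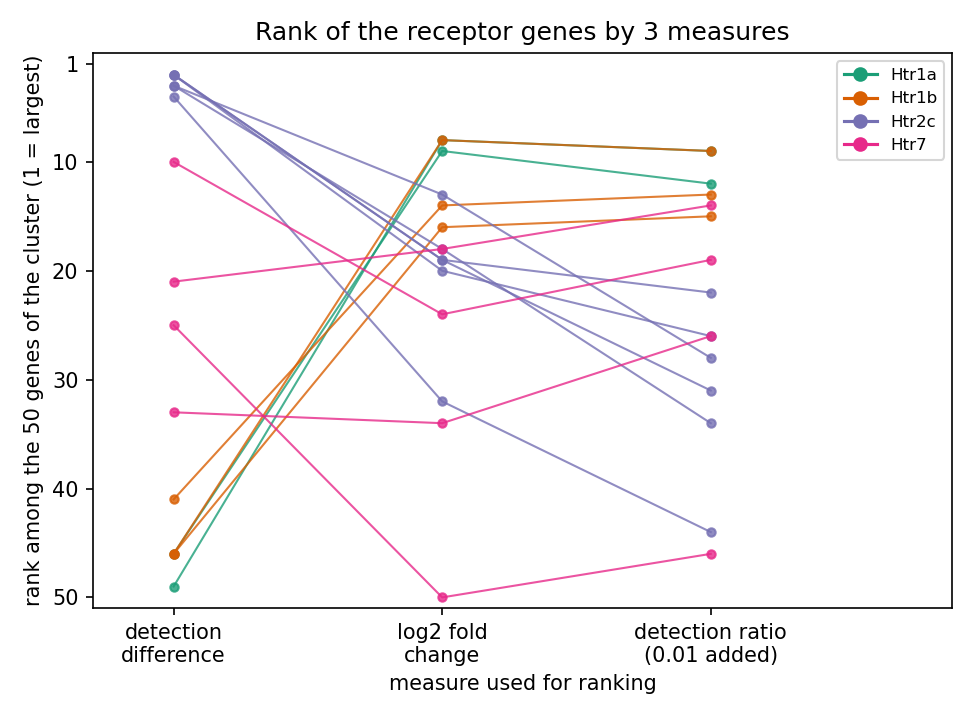
Rank of each receptor gene among the 50 listed genes of its cluster (y axis, 1 at the top) by 3 measures (x axis): the difference in detection, the log2 fold change and the detection ratio with 0.01 added to both fractions; each line is 1 of the 15 rows. Htr2c ranked 2 to 4 by detection difference and 22 to 44 by detection ratio, and Htr1a 46 and 49 by detection difference and 12 and 9 by detection ratio.

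The log2 fold change of Htr2c exceeded the log2 ratio of its detection percentages by 0.47 to 0.83 in its 6 clusters. For Htr1a, Htr1b and Htr7 the excess was 0.02 to 0.19. Other listed genes with like detection outside (within 5 points of the range of Htr2c) had median differences of 0.68 (Broad), 0.56 (GABA) and 0.47 (Sst), so Htr2c did not stand apart from them.

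**Figure D4:**
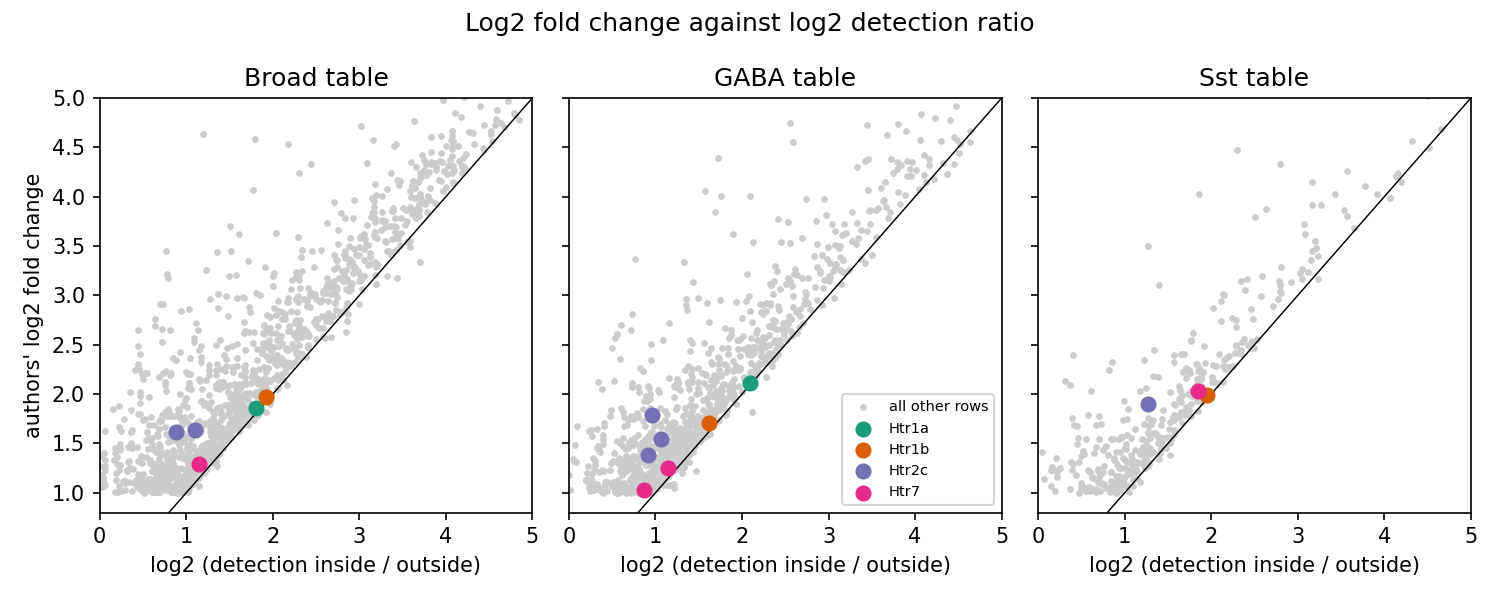
Authors' log2 fold change (y axis) against the log2 ratio of detection inside over outside (x axis) in each table; grey points are the other listed rows, coloured points the 4 receptor genes, and the line marks equal values. Htr2c lies 0.47 to 0.83 above the line and the other members 0.02 to 0.19, while 75 rows beyond an axis limit of 5 and 40 rows listed at 0 outside are not drawn.

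Htr7, whose Gs-coupled receptor raises cyclic AMP, was listed for 4 clusters, in each of them beside Htr2c. It was detected in 31.6% of GABA subcluster 12 against 17.3% (log2 fold change 1.03) and in 38.4% of GABA subcluster 16 against 17.4% (1.25), per the authors' deposited table. In Broad cluster 10 it was detected in 33.5% against 15.1% (1.29), per the authors' deposited table. In Sst subcluster 4 it was detected in 38.4% against 10.7% (2.03), per the authors' deposited table. Its value in GABA subcluster 12 was the lowest log2 fold change of that list of 50, and the gene stood at 40 of 50 in order of p there and in subcluster 16.

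GABA subcluster 16 and Sst subcluster 4 shared 33 of 50 listed genes, 66% of each list. Their detection inside was nearly the same, 86.4% and 86.3% for Htr2c and 38.4% in both for Htr7, per the authors' deposited table. Detection outside differed, at 17.4% of other GABA nuclei and 10.7% of other Sst nuclei for Htr7, per the authors' deposited table. The larger log2 fold change of Htr7 in the Sst table thus went with lower detection outside, at equal detection inside.

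From the shares, Htr7 was detected in 17.8% of GABA nuclei, 15.8% of all nuclei and 12.3% of Sst nuclei. GABA subclusters 12 and 16 held 5.30% of GABA nuclei and 10.1% of those with Htr7, and the other 20 had it in 16.9% of their nuclei on average. Broad cluster 10 held 3.99% of nuclei and 8.44% of those with Htr7. Sst subcluster 4 held 5.79% of Sst nuclei and 18.1% of those with Htr7.

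The tables do not give joint detection, but the percentages bound it. In GABA subcluster 16, at least 24.8% and at most 38.4% of nuclei had both Htr2c and Htr7 detected, so at least 64.6% of its Htr7-positive nuclei also had Htr2c. In Sst subcluster 4 the bounds were 24.7% and 38.4%. In Broad cluster 10 they were 13.9% and 33.5%, and in GABA subcluster 12 they were 8.8% and 31.6%. For Htr1a and Htr2c in GABA subcluster 10 the bounds were 0% and 6.4%, so joint detection is not required there. Both bounds follow from the percentages alone and hold whatever the link between the genes. They are limits, not the joint detection that unlinked genes would give.

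The clusters listing Htr2c and Htr7 formed 2 pairs by shared genes, with overlap between the pairs. Broad cluster 10 shared 16 of 50 genes (32% of each list) with Sst subcluster 4, each the other's best match between those tables, and 11 of 50 (22%) with GABA subcluster 16, whose best Broad match it was. GABA subcluster 12 shared 9 of 50 (18%) with Sst subcluster 4. GABA subcluster 12 and Broad cluster 10 shared 34 of 50 genes, 68% of each list. Both listed 3 of the 11 markers of lateral septum GABA neurons: Cartpt, which encodes a peptide that reduces feeding (10.4% against 1.9% and 8.6% against 1.7%), the oestrogen receptor gene Esr1 (16.5% against 5.6% and 12.7% against 6.3%) and Prlr, which encodes the receptor of prolactin (32.1% against 12.8% and 24.3% against 10.9%), per the authors' deposited table. The other markers of that list were not listed for either cluster. Both also listed the enkephalin gene Penk, a marker on the striatal list, at 19.3% against 3.7% and 13.3% against 3.5%, per the authors' deposited table. Of receptors linked to feeding, both listed the calcitonin receptor gene Calcr, at 1.5% and 1.2% inside against 0.1% outside in each, and subcluster 12 Oprm1, for the µ-opioid receptor, with 15.7% inside and 7.0% outside, per the authors' deposited table. With a minimum of 25% detection, subcluster 12 was led by Cdh9 (2.68), Zfp804b (2.12) and Cntn5 (2.00), and Broad cluster 10 by Zfp804b (2.12), Cpa6 (1.68) and Cntn5 (1.67), per the authors' deposited table.

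GABA subcluster 16 and Sst subcluster 4 were led by the protease genes Pappa (3.29 and 2.86) and Cpa6 (2.57 and 4.33) and the retinoic acid receptor gene Rarb (2.23 and 2.50), per the authors' deposited table. Subcluster 16 listed the somatostatin gene Sst, at 42.9% against 13.4% (1.75), per the authors' deposited table. GABA subclusters 12 and 16 shared 5 of 50 genes with each other, 10% of each list, among them Htr2c and Htr7.

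Elavl2 was the only other gene listed for all 3 GABA subclusters of Htr2c, and it was listed for 6 GABA subclusters in all. Both Broad clusters of Htr2c listed 6 other genes in common. Of these, the chemokine gene Cxcl14 and Cldn34c1 had just those 2 listing clusters, Brinp3, Ecel1 and Zfp804b were listed for 4 each, and Elavl2 for 6. Cxcl14 was detected in 18.9% of cluster 6 against 9.3% and in 24.5% of cluster 10 against 9.2%, per the authors' deposited table. In the GABA table no gene had the same 3 subclusters as Htr2c. The nearest were A330008L17Rik, Htr7, Ablim1, P3h2 and Otx2os1, each with a Jaccard index (shared clusters over all clusters of either gene) of 0.667. For Htr7, the nearest in the GABA table were the collagen-modifying enzyme gene P3h2 and Otx2os1, a transcript named for lying opposite Otx2 whose reads may not be separable from it, both listed for the same 2 subclusters, followed by Htr2c. P3h2 was detected in 14.9% of subcluster 12 against 5.9% and in 19.2% of subcluster 16 against 6.0%, and Otx2os1 in 19.4% against 2.1% and 12.3% against 2.6%, per the authors' deposited table. The nearest gene to Htr7 was Crim1 in the Broad table, at 34.8% of cluster 10 against 18.3%, and the reelin gene Reln in the Sst table, at 34.1% of subcluster 4 against 9.1%, per the authors' deposited table.

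The other listed receptors of the family were found elsewhere. Htr4, whose receptor also couples to Gs, was listed in 0 of the 9 clusters that list a member. Those 9 list 24.3% of the 1039 genes listed anywhere, so nothing is read from that 0. It was detected in 22.4% of GABA subcluster 3 against 10.1% (log2 fold change 1.21) and in 30.5% of GABA subcluster 9 against 10.2% (1.78), per the authors' deposited table. It was also detected in 28.4% of Broad cluster 3 against 11.0% (1.48) and in 22.4% of Sst subcluster 0 against 10.6% (1.20), per the authors' deposited table. GABA subclusters 3 and 9 held 13.7% of GABA nuclei and 31.0% of those with Htr4. Htr3a, a subunit of the serotonin-gated ion channel, was listed for GABA subcluster 19 with detection in 2.1% of nuclei and was listed at 0 outside, per the authors' deposited table, so no fold is given.

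Markers of other cell types were counted in the 9 clusters that list a member. Of 52 glial, vascular and ependymal markers, 17 glutamatergic neuron markers and 11 cholinergic or medial septum markers, these clusters listed 0. Only 25, 13 and 5 of them, in that order, appear anywhere in the 3 tables. Among the 9 clusters are 4 GABA and 2 Sst subclusters, whose tables by name leave out most other cell types. As background, these 9 clusters listed 0.695% of all genes tested in the Broad table, 0.888% in the GABA and 0.519% in the Sst table, and 24.3% of the 1039 genes listed anywhere, so a count of 0 for a short list is little information. Of 11 markers of lateral septum GABA neurons, these clusters listed 5 (Cartpt, Dgkg, Esr1, Prlr and Sst), in 5 of the 9 clusters. Striatal markers there were Penk and Rarb, 2 of 11, in 4 of the 9 clusters. Sst, which is on the septal list too, was the only interneuron marker, in 1. Whether striatal nuclei contribute to those 4 clusters was not tested. Of 5 markers of serotonin neurons, 0 were listed for any of the 55 clusters. Of 16 genes for Gi/o proteins, their regulators and GIRK channels, the 9 clusters listed 0 as well. Each table listed 1 of them elsewhere, so nothing is read from that 0.

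The other signalling lists were chosen with earlier results known, and their counts are descriptions beside 4.05%, 3.52% and 1.95% of all genes in the Broad, GABA and Sst tables. Of 23 genes for Gq and phospholipase C signalling, the path of the Htr2c receptor, 8 were listed among Broad clusters, 8 among GABA subclusters and 3 among Sst subclusters. The clusters listing a member held 1 of them in each table, Dgkg or Plcb1, and the 6 clusters listing Htr2c held 0. Those 6 listed 0.452% (Broad), 0.669% (GABA) and 0.276% (Sst) of all genes tested, so 0 of 23 is near the background. Of 28 genes for Gs and cyclic AMP signalling, the path of the Htr7 receptor, the tables listed 11 (Broad), 9 (GABA) and 4 (Sst), and the 4 clusters listing Htr7 held 0. Those 4 listed 0.243% (Broad), 0.474% (GABA) and 0.276% (Sst) of all genes tested, so 0 of 28 is near the background too. Of 20 feeding and opioid receptor genes, the tables listed 4 (Broad), 8 (GABA) and 2 (Sst). Of 11 genes for receptor editing and partner proteins, Adarb2, which encodes a brain relative of the RNA-editing enzymes, was the 1 listed in each table, for clusters without a member.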

How the data were processed

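Single-nucleus RNA was measured from pooled septal punches (500 µm wide, from 200 µm sections) of 8 mice in 3 libraries of batch year 2018, per the labels. Per the submitters' processing notes the authors used Seurat 4 and mm10. For the aligner, nucleus filters, doublet treatment, clustering settings and marker test, the sources used here give nothing. The deposited tables hold the authors' log2 fold change of each gene in each listing cluster, whose pseudocount is not given, so a fold change of a rarely detected gene depends on it. Detection is a deposited fraction of nuclei with 3 decimals, written as a percentage. The deposited p-values were computed by the authors over nuclei rather than animals and are used only for order within a list. Depth and nucleus numbers are unknown, so no counting interval was computed.

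Members, gene lists and tests were chosen with earlier results of these data known. Genes named are the members, the 3 leading genes of each listing cluster, the 5 most like each member (Jaccard index, ties by detection), other listed serotonin genes, and list members in the listing clusters; the dopamine, adrenergic and muscarinic genes and Adarb2 were named after their values were seen. Shares of nuclei were solved by least squares from 286 Broad, 258 GABA and 42 Sst genes listed in at least 2 clusters. The residual was near 0.02 percentage points. The solver was run on simulated tables with many more such genes than the 42 of the Sst table. That run therefore does not show how well the Sst shares are recovered. Bounds for rounding vary detection by 0.05 points with the shares held, so they leave out error in the shares. The solved shares summed to 100.03% (Broad), 100.76% (GABA) and 100.10% (Sst). Promoters came from RefSeq (4 of 4 members matched). The work used numpy 2.4.6 and pandas 2.3.3 on Python 3.11.15, with plots by matplotlib 3.10.9 and scipy 1.17.1 for the bounded solution. Alternatives were other thresholds, rankings, ties and solutions for the shares.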

Additional observations from a re-analysis of the deposited data

How the results depend on the processing

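With the authors' adjusted p under 0.001 the counts of listed members and of listed serotonin receptors were the same in all 3 tables. Requiring a log2 fold change of 2 or more left 0 Broad, 1 GABA and 1 Sst members, and 0, 2 and 1 receptors of the family. With detection of at least 10% inside, 2 members and 3 receptors were left in the Broad table, with 3 members and 4 receptors in the GABA table and 3 and 4 in the Sst table. With at least 25%, 2 members were left in each of the 3 tables. The members lost by detection were Htr1a and Htr1b. The part of positive nuclei in the listing clusters moved beyond rounding in 5 of 33 recomputed values: to 17.9% for Htr2c and 9.93% for Htr7 in the GABA table with shares summing to 100%, to 17.9% and 9.99% with rows of at least 25% detection, and to 8.49% for Htr7 in the Broad table without the members' rows. Leaving out the members' rows could not move the Sst values, because each member listed there has 1 listing subcluster and was not in the equations. Those values are still counted among the 33. All 15 ranks changed with the measure, and 10 of 11 sets of nearest genes with the rule for ties. No paired analysis was possible because all libraries form 1 group and no values per library were used. Unknown depth limits what absence from a list can mean, and leaving out a library could not be done.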

Other observations

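Other monoamine genes, and a muscarinic receptor gene, were listed for clusters without a member. Slc18a2, the vesicular monoamine transporter, was the only gene of 10 for serotonin synthesis, transport and breakdown to be listed. It was detected in 22.1% of Broad cluster 2 against 3.9% (log2 fold change 2.70) and in 21.4% of GABA subcluster 0 against 4.6% (2.44), per the authors' deposited table. Of 23 dopamine, noradrenaline, histamine and muscarinic receptor genes, 5 were listed in the tables and 0 of them for the 9 clusters that list a member, which list 24.3% of the 1039 genes listed anywhere, so nothing is read from that 0.

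The muscarinic receptor gene Chrm2 was listed for GABA subclusters 4 (49.3% against 23.8%), 7 (51.1% against 24.0%) and 15 (74.5% against 24.4%), per the authors' deposited table. The dopamine receptor gene Drd3 was listed for GABA subcluster 4 (8.9% against 1.4%) and Drd1 for GABA subcluster 13 (21.4% against 1.2%), per the authors' deposited table. The adrenergic receptor genes were Adra1a, listed for GABA subclusters 17 (18.5% against 2.2%) and 19 (22.2% against 2.2%), and Adra2a, listed for GABA subcluster 6 (9.8% against 4.7%), per the authors' deposited table. Subcluster 19 is also the one that lists Htr3a.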
